A study of Homo sapiens with 8 samples.

Results

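TNFSF13B, the gene of the B-cell survival cytokine BAFF, was examined with 7 related ligand and receptor genes of the TNF superfamily in MOLM-13 leukemia cells treated with a Menin inhibitor, a KAT6A inhibitor or both. The 8 members were TNFSF13B, TNFSF13, TNFSF12, TNFSF10, TNF, TNFRSF1A, TNFRSF1B and LTBR, out of 26475 genes in the count table. TNFSF13B was picked because it was higher with VTP50469 and with the combination in these same libraries. The values of TNFSF13B in those contrasts are therefore a description and carry no test. The other members were set beside it as relatives, with earlier results of these data known.

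MOLM-13, a human cell line from acute myeloid leukemia, carries a KMT2A-AF9 fusion, and all libraries came from the unmodified line. The groups were the combination of VTP50469 and WM1119, VTP50469 alone, WM1119 alone (spelled WM119 in the sample labels) and the vehicle DMSO, with 2 libraries each and 8 in all. VTP50469 keeps Menin from binding KMT2A. WM1119 is an inhibitor of KAT6A, a histone acetyltransferase. The sources used here give neither dose nor duration, nor whether the 2 libraries of a group were separate cultures, so the p-values measure only the spread between these libraries, which may be technical.

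Ligands of the TNF superfamily are made mostly as membrane proteins, act as trimers, and can be cut from the cell surface. Their receptors either carry a death domain, which recruits adaptors of caspase activation, or recruit TRAF proteins, which lead to NF-kB. Monocytes and neutrophils are known sources of BAFF and of its relative APRIL, whose receptors are found mainly on B cells and plasma cells.

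Libraries held 18092906 to 23634468 counts. Combination replicate 2 stood apart: it had counts for 12972 genes, against 14142 to 14544 in the other 7 libraries, and 2829 genes differed over 2-fold between the 2 combination libraries, against 351 to 433 within the other pairs. Its differences from the DMSO mean also followed transcript length (Spearman correlation -0.531 across 11416 genes, which are not independent replicates), as did those of WM1119 replicate 1 (-0.5). Summed monocyte markers reached 6448 and 8519 CPM (counts scaled to a common library total) in the combination, 1816 and 2259 CPM with VTP50469, 1608 and 1554 CPM with WM1119, and 602 and 648 CPM in DMSO, with 0 of 7 markers at 0. LYZ made up most of this sum (6374 and 8431 CPM in the combination, 541 and 598 CPM in DMSO). Of 6 tested monocyte markers, 3 were called higher and 1, VCAN, lower in the combination than in DMSO. Of all genes, 5.85 percent were called higher and 3.44 percent lower. VCAN had 8.35 and 1.8 CPM in the combination and 40.5 and 32.0 CPM in DMSO. Neutrophil markers reached 2228 and 4000.2 CPM in the combination, 1283 and 1553 CPM with VTP50469, 519 and 468 CPM with WM1119, and 389.9 and 419 CPM in DMSO. CEACAM8 was at 0 in all libraries, and 5 of 5 tested were called higher in the combination, against 5.85 percent of all genes. ELANE (708.5 and 1661.6 CPM in the combination) and MPO (1421.3 and 2213.9 CPM) made up most of this sum. In the combination CSF3R had 96.7 and 118.8 CPM, CAMP 0.848 and 4.65 CPM, PADI4 0.806 and 1.3 CPM, and FCGR3B 0 counts. The part of monocyte and neutrophil markers in the member values was not tested. In bulk RNA more cells of a type and more RNA per cell cannot be told apart. Summed markers of B and plasma cells stayed between 0.966 and 3.59 CPM and those of dendritic cells at 0.664 CPM or less. Those of T and NK cells lay between 22.3 and 84.3 CPM with CD3E, CD3G and KLRD1 at 0. NKG7 made up most of this sum (30.3 and 82.1 CPM in the combination, 20.6 and 19.2 CPM in DMSO). Of 3 tested T and NK markers, 1 was called higher in the combination and 0 lower, against 5.85 and 3.44 percent of all genes. The 7 markers of MOLM-13 and the KMT2A fusion program were all read in every library and summed to 1105 to 1666 CPM, of which CEBPA and SPI1 were the largest part. In the combination 3 of them (CEBPA, SPI1 and CD33) were called higher than DMSO and 3 (FLT3, MEIS1 and PBX3) lower, against 5.85 and 3.44 percent of all genes. Their median log2 difference was -0.49. The calls of the MOLM-13 markers and of VCAN were lost without any 1 library of VTP50469, WM1119 or DMSO. In those fits the neutrophil count fell and the count of monocyte markers called higher was kept. That monocyte count rose without combination replicate 1, as did the count over all genes.

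TNFSF13B had 52.6 and 44.1 CPM in the combination libraries, 36.6 and 39.9 CPM with VTP50469, 20.2 and 21.9 CPM with WM1119, and 12.6 and 13.9 CPM in DMSO. These values rest on 1240 and 711 counts in the combination, 746 and 908 with VTP50469, 475 and 467 with WM1119, and 232 and 293 in DMSO. No group overlapped another, and the order was the combination, VTP50469, WM1119 and DMSO. The mean was 48.3 ± 6.02 CPM in the combination, 38.2 ± 2.33 CPM with VTP50469, 21.1 ± 1.18 CPM with WM1119 and 13.2 ± 0.949 CPM in DMSO (SD, n = 2 each). The step between the nearest libraries of the combination and VTP50469 was smaller than the distance between the 2 combination libraries, so these neighbours in the order were the least separated.

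On the log2 scale TNFSF13B was 1.87 above DMSO in the combination (standard error, SE, 0.16, 3.65-fold) and 1.53 above DMSO with VTP50469 (SE 0.16, 2.89-fold). When each library was left out in turn the first value lay between 1.72 and 2.00 and the second between 1.45 and 1.61. The combination was 0.34 above VTP50469 (SE 0.15) and 1.20 above WM1119 (SE 0.15). The log2 difference in the combination was smaller than the sum of both single differences by 0.33, given as -0.33 with SE 0.22, again with no test since these contrasts share the libraries that chose the gene.

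WM1119 alone was the single contrast of TNFSF13B that the choice of the gene did not use directly. It shares the DMSO libraries with the contrasts that chose the gene. Its p-values may therefore be too small and are no independent test. The log2 difference was 0.67 (SE 0.16, 1.59-fold, unadjusted p = 0.00362 by edgeR's quasi-likelihood test), and both WM1119 libraries lay above both DMSO libraries. It did not pass the adjustment over all 12401 genes tested (adjusted p = 0.521, and 0.11 by DESeq2). In this comparison 0 percent of all genes were called at an adjusted p under 0.05, while 612 genes, or 4.94 percent, had an unadjusted p under 0.05 and DESeq2 called 82. The call was reached without combination replicate 1 or combination replicate 2, with log2 differences of 0.67 and 0.66.

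**Figure D1:**
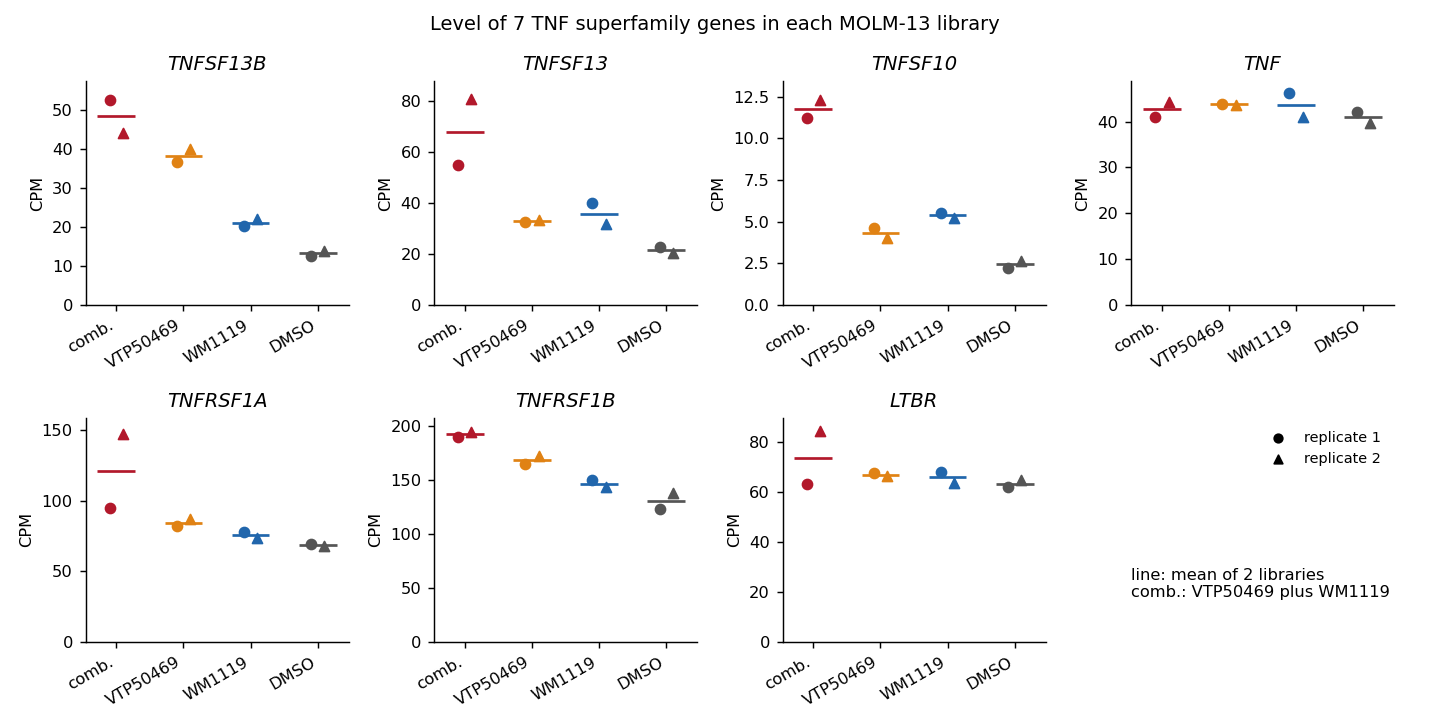
Level of TNFSF13B and 6 other members in each library, in CPM on linear axes from 0. Points are libraries and horizontal lines are means of the 2 libraries of a group. TNFSF13B forms 4 separate levels between 52.6 and 12.6 CPM, and TNF stays between 39.7 and 46.2 CPM in all 8 libraries.

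TNFSF13B lies on chromosome 13 (hg38, 108251240 to 108308484, plus strand, 6 exons in its canonical GENCODE 44 transcript). The RefSeq start site lies within that span, downstream of the first annotated GENCODE start. To set the upstream DNA of TNFSF13B beside that of TNF, the ligand with the smallest difference from DMSO in the combination, the 250 bases before the RefSeq start (GRCh38.p14) of TNFSF13B, chr13:108269379-108269628 on the plus strand, and of TNF, chr6:31575315-31575564 on the plus strand, are given 5′ to 3′. Capitals mark matches on either strand to GAGGAA, the core bound by PU.1 and other ETS factors (read as its reverse complement in both), and to a loose NF-kB core (GGG and CC with any 5 bases between).
TNFSF13B: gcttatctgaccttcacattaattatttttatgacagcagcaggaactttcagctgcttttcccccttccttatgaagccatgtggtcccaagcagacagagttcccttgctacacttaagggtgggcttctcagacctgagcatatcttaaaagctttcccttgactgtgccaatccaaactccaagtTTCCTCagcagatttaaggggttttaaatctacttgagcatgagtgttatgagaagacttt
TNF: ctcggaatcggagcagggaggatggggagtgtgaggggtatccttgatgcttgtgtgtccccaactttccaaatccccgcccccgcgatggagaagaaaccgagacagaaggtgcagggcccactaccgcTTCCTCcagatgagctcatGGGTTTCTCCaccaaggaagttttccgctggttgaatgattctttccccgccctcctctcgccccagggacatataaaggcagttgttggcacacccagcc
TNFSF13B holds 1 match, the ETS core at -61 from the start, and none of the NF-kB core in this window. TNF holds the ETS core at -120 and the NF-kB core at -101, and the 2 matches do not overlap. Of the 8 members, 7 have a window in the RefSeq table of 27305 windows. By GENCODE spans, the windows of TNFSF13B, TNFSF13 and LTBR lie inside the gene, that of TNFSF13 within its first exon, and those of TNFSF10 and TNFRSF1A run into its first bases, so the ETS match of TNFSF10 at -43 is not upstream of the GENCODE start. The ETS core is found in 5 of these 7 and in 23.4 percent of all windows, and the NF-kB core in 5 of 7 and in 53.7 percent. An interferon regulatory factor element (GAAA and GAAA with any 2 bases between) is found before TNFSF10 at -187 and TNFRSF1B at -10, in 3.07 percent of all windows. Cores of C/EBP (TTGCNNAA, 9.13 percent of windows), STAT (TTCNNNGAA, 6.78 percent) and HOX-MEIS (TGATTNAT, 2.59 percent) had 0 matches in the 7 windows. A match describes the letters and was not read as a binding site.

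Among the other ligands, TNFSF13 and TNFSF10 rose in the combination and TNF did not. Members were chosen with earlier results of these data known, so the shares that follow describe them and do not test the family. Of the 6 members tested besides TNFSF13B, 3 were called higher than DMSO in the combination and 0 lower. Of all genes, 5.85 percent were called higher and 3.44 percent lower (9.29 percent in either direction). Their median log2 difference was 0.69, against 0.01 over all genes tested. In 4 of the 6 both combination libraries lay above both DMSO libraries, as they did in 29 percent of all genes. At an unadjusted p under 0.05 there were 4 of the 6, against 30.3 percent of all genes, and DESeq2 called 4 of the 6, against 17.7 percent.

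TNFSF13 encodes APRIL, the closest relative of BAFF (chromosome 17, 7558292 to 7561608). It had 55.1 and 80.7 CPM in the combination, 32.4 and 33.5 CPM with VTP50469, 39.9 and 31.8 CPM with WM1119, and 22.6 and 20.3 CPM in DMSO. All treated libraries were above both DMSO libraries, and both combination libraries were above all others. The log2 difference between the combination and DMSO was 1.66 (SE 0.22, edgeR adjusted p = 0.00844, DESeq2 adjusted p = 7.32e-09). Combination replicate 2 carried the higher value, and the difference was 1.37 without it and 1.90 without combination replicate 1. The call was lost without DMSO replicate 1 (adjusted p = 0.104) or DMSO replicate 2 (0.109).

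TNFSF12, which encodes TWEAK, lies directly upstream of TNFSF13 (chromosome 17, 7548508 to 7557890). It had 0 counts in all 8 libraries, as had the readthrough transcript that joins TNFSF12 and TNFSF13. Counts of 0 allow up to 0.0755 CPM in the combination, 0.0695 CPM with VTP50469, 0.0669 CPM with WM1119 and 0.0758 CPM in DMSO (3 counts over the 2 libraries of a group, counting error only). The spans of TNFSF12 and TNFSF13 do not overlap, but the readthrough joins both on 1 strand. The sources used here do not say how reads shared with it were handled, so the split of reads among the 3 entries is uncertain.

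TNFSF10 encodes TRAIL, a ligand of death receptors (chromosome 3, 172505508 to 172523475, minus strand). It had 11.2 and 12.3 CPM in the combination, 4.61 and 4.04 CPM with VTP50469, 5.54 and 5.21 CPM with WM1119, and 2.22 and 2.66 CPM in DMSO. No treated library fell among the DMSO libraries, and the combination libraries were close to each other and above both single treatments. It showed the largest difference of the 6 tested members between the combination and DMSO, a log2 value of 2.26 (SE 0.21, edgeR adjusted p = 0.00299, DESeq2 1.64e-12). The adjusted p was 0.0604 without DMSO replicate 1 and at most 0.046 without any other single library.

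TNF, the prototype inflammatory cytokine of the family, lies in the class III region of the MHC (chromosome 6, 31575565 to 31578336). It had 41.1 and 44.3 CPM in the combination, 43.9 and 43.6 CPM with VTP50469, 46.2 and 40.9 CPM with WM1119, and 42.1 and 39.7 CPM in DMSO. The groups overlapped or lay within a few CPM of each other. The log2 difference from DMSO was 0.06 in the combination (SE 0.13, adjusted p = 0.761), 0.10 with VTP50469 (SE 0.13, adjusted p = 0.999) and 0.09 with WM1119 (adjusted p = 1). These p-values do not show that the level was the same.

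Of the 3 receptors, TNFRSF1B was called higher in the combination, TNFRSF1A had a larger difference that did not pass, and LTBR was nearest to DMSO. TNFRSF1B encodes TNFR2, which lacks a death domain and recruits TRAF2 (chromosome 1, 12166991 to 12209228). It had 190.1 and 194.1 CPM in the combination, 164.8 and 172.0 CPM with VTP50469, 149.5 and 143.7 CPM with WM1119, and 122.9 and 138.0 CPM in DMSO. The 4 groups did not overlap and kept the order seen for TNFSF13B. The log2 difference between the combination and DMSO was 0.56 (SE 0.12, edgeR adjusted p = 0.0375, DESeq2 0.00119). That call was lost without any 1 library of VTP50469, WM1119 or DMSO. The edgeR adjusted p was 0.0867 with the replicate number as a block. That value was 0.0615 with no count filter and 0.276 in a fit of only the groups compared.

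TNFRSF1A encodes TNFR1, the receptor with a death domain (chromosome 12, 6328757 to 6342114, minus strand). It had 94.6 and 147.3 CPM in the combination, 81.8 and 87.3 CPM with VTP50469, 77.8 and 73.9 CPM with WM1119, and 69.2 and 67.7 CPM in DMSO. Every treated library was above both DMSO libraries, and combination replicate 2 stood far above the rest. The log2 difference of the combination from DMSO was 0.82 (SE 0.21, edgeR adjusted p = 0.0572, DESeq2 0.0087). It was 0.48 without combination replicate 2 and 1.09 without combination replicate 1. The spread between the 2 combination libraries is no longer in these fits.

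LTBR, the lymphotoxin beta receptor of non-canonical NF-kB signaling, lies beside TNFRSF1A (chromosome 12, 6375045 to 6391571). It had 63.1 and 84.2 CPM in the combination, 67.4 and 66.2 CPM with VTP50469, 67.8 and 63.6 CPM with WM1119, and 61.9 and 64.6 CPM in DMSO. Combination replicate 1 lay among the DMSO values and combination replicate 2 above all. The log2 difference was 0.22 (SE 0.16, adjusted p = 0.372), with 0.01 without combination replicate 2 and 0.40 without combination replicate 1. The value thus rests on combination replicate 2.

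Levels of different members were compared per kilobase of the canonical transcript. In the combination TNFRSF1A had 55.7, TNFRSF1B 52.1 and LTBR 34.5 CPM per kilobase, while TNFSF13 had 37.5, TNF 25.4, TNFSF13B 18.8 and TNFSF10 6.26. In DMSO the levels were 31.5 CPM per kilobase for TNFRSF1A, 35.4 for TNFRSF1B, 29.7 for LTBR, 11.8 for TNFSF13, 24.4 for TNF, 5.13 for TNFSF13B and 1.30 for TNFSF10. TNFSF13 was thus above TNF in the combination and below it in DMSO. Canonical transcripts of the members are 1377 to 3687 bases long.

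**Figure D2:**
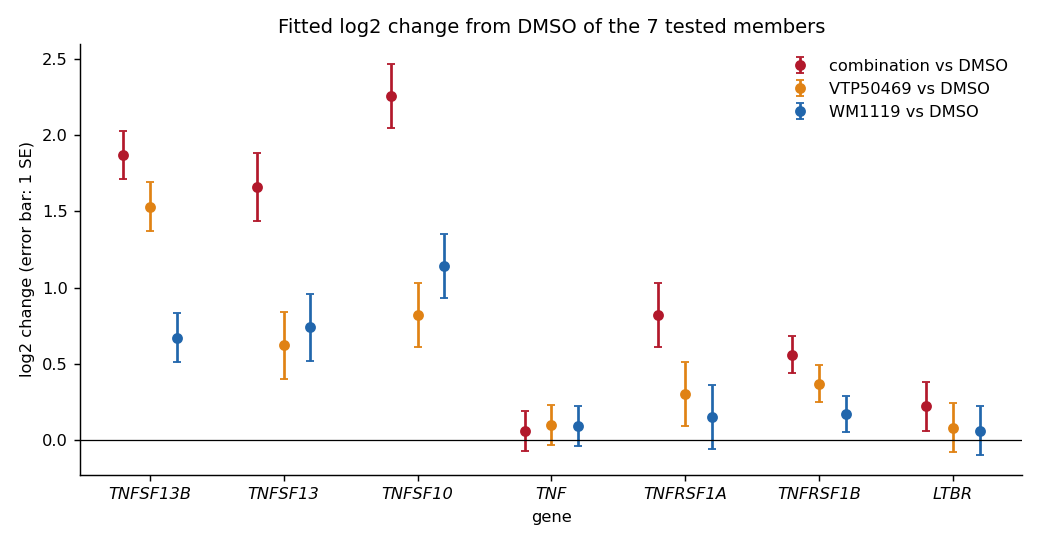
Log2 change of 7 members against DMSO in the combination, with VTP50469 and with WM1119. Error bars are 1 SE. In the combination TNFSF10 (2.26), TNFSF13B (1.87) and TNFSF13 (1.66) are farthest from 0 and TNF (0.06) is nearest.

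With VTP50469 alone, 0 of the 6 tested members were called by edgeR in either direction, against 0.169 percent of all genes, and DESeq2 also called 0, against 1.54 percent. At an unadjusted p under 0.05 there were 3, against 6.75 percent of all genes. These were TNFSF10 with a log2 difference of 0.82 (SE 0.21, adjusted p = 0.313), TNFSF13 with 0.62 (SE 0.22, adjusted p = 0.576) and TNFRSF1B with 0.37 (SE 0.12, adjusted p = 0.491). All 6 had both VTP50469 libraries above both DMSO libraries, which 27.3 percent of all genes also showed, and their median was 0.33.

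With WM1119 alone, 0 of the 6 were called by edgeR, 2 had an unadjusted p under 0.05, and DESeq2 called 1, against 0, 4.94 and 0.62 percent of all genes. The gene that DESeq2 called was TNFSF10, with a log2 difference of 1.14 by edgeR (SE 0.21, edgeR adjusted p = 0.338, DESeq2 adjusted p = 0.0333). TNFSF13 followed with 0.74 (SE 0.22, adjusted p = 0.711). For both ligands the difference with WM1119 was numerically above that with VTP50469, whereas TNFSF13B was lower with WM1119 (log2 0.67) than with VTP50469 (1.53). The contrast of both single treatments was not tested. WM1119 libraries lay above DMSO in 4 of the 6 members and in 24.2 percent of all genes.

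Adding WM1119 to VTP50469 gave 0 of 6 members called by edgeR, against 0.395 percent of all genes, with 3 at an unadjusted p under 0.05 (17.9 percent of all genes) and 2 called by DESeq2 (5.3 percent). TNFSF10 was just short of the threshold at a log2 difference of 1.44 (SE 0.20, edgeR adjusted p = 0.0504, DESeq2 2.31e-05), and TNFSF13 differed by 1.04 (SE 0.22, 0.103 by edgeR and 0.0022 by DESeq2). Adding VTP50469 to WM1119 likewise gave 0 of 6 called by edgeR, against 1.43 percent of all genes, with 4 at an unadjusted p under 0.05 (16.7 percent of all genes) and 2 called by DESeq2 (5.53 percent). Here TNFSF10 differed by 1.13 (edgeR adjusted p = 0.053, DESeq2 0.00138) and TNFSF13 by 0.92 (0.11 and 0.00836). The interaction, the log2 difference of the combination minus the summed log2 differences of the single treatments, was called by edgeR for 0 of 6 members and 0 percent of all genes (273 genes, or 2.2 percent, at an unadjusted p under 0.05, with 0 of the 6 members, and 5 genes, or 0.0305 percent, by DESeq2). It was 0.30 for TNFSF10 (SE 0.29), 0.30 for TNFSF13 (SE 0.30), 0.37 for TNFRSF1A (SE 0.29) and 0.02 for TNFRSF1B (SE 0.17), with adjusted p between 0.938 and 0.976.

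Genes whose pattern was like that of TNFSF13B were picked by Pearson correlation of log2 CPM over the 8 libraries, among 11257 genes averaging 1 CPM or more. Those described were BZRAP1 (r = 0.995), HAL (0.9896), ATP2A3 (0.9877) and GRAMD1B (0.984). The 8 points share 4 treatments and the depth of each library, so these values describe likeness only. BZRAP1 had 351.3 and 293.7 CPM in the combination, 267.3 and 296.5 CPM with VTP50469, 114.0 and 133.4 CPM with WM1119, and 65.5 and 68.3 CPM in DMSO. HAL, which encodes histidine ammonia-lyase, had 12.0 and 13.8 CPM in the combination, 7.85 and 8.65 CPM with VTP50469, 3.02 and 2.95 CPM with WM1119, and 0.92 and 1.28 CPM in DMSO. Both repeat the order of groups of TNFSF13B, with the BZRAP1 libraries of the combination and VTP50469 overlapping. Without combination replicate 2 the 4 genes ranked 5, 9, 3 and 28. Of the members, TNFRSF1B was most alike (r = 0.963, rank 39) and TNFRSF1A (0.736) reached 0.967 without combination replicate 2, while TNFSF10 had 0.808, TNFSF13 0.786, LTBR 0.432 and TNF 0.283. TNFSF13B and TNFRSF1B are both listed in the study's Myeloid Program, a gene list from its Perturb-seq screen. The share of all genes in that list is not given here, so the listing is a description, and a link to the likeness was not tested.

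**Figure D3:**
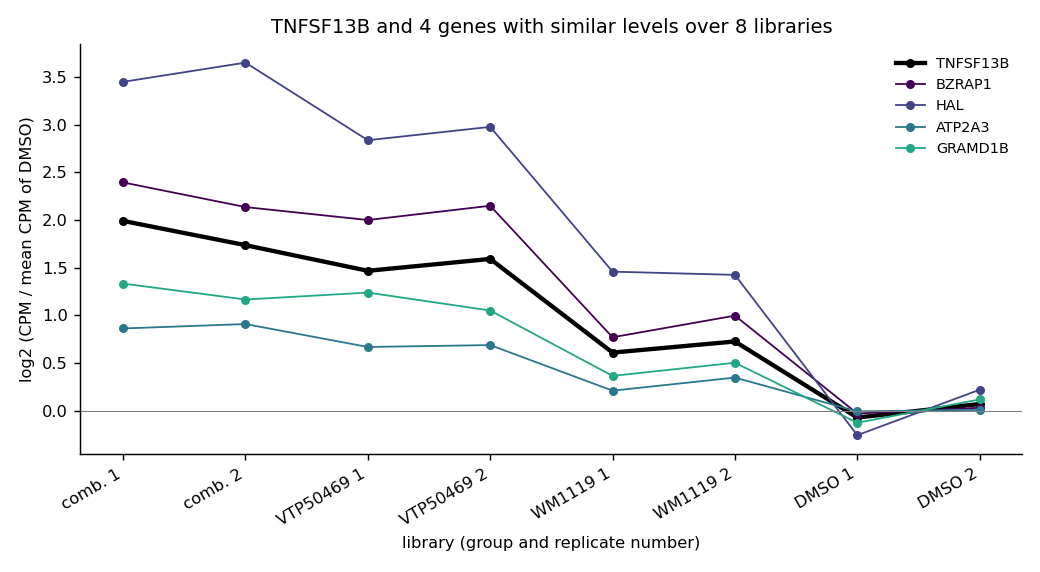
Log2 ratio of CPM to the DMSO mean in each of the 8 libraries, for TNFSF13B and 4 genes with a similar pattern. Lines join the values of 1 gene and do not stand for a time course. All 5 genes are highest in the combination and VTP50469 libraries and lowest in DMSO.

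The receptors of BAFF and APRIL were at or near 0. TNFRSF13B (TACI) and TNFRSF17 (BCMA) had 0 counts in all 8 libraries. TNFRSF13C, the BAFF receptor, had 0 and 1 counts in the combination, 4 and 1 with VTP50469, 2 and 4 with WM1119, and 5 and 8 in DMSO. The ligands BAFF and APRIL were thus read at 12.6 to 80.7 CPM in libraries with at most 8 counts for any of their 3 receptors of this family.

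The table holds 47 ligands and receptors of the family. Of 18 ligands, 7 had 0 counts in all libraries and 8 were tested, and of 29 receptors, 8 had 0 counts in all and 14 were tested. In the combination 2 of the 7 tested ligands besides TNFSF13B and 1 of the 14 tested receptors were called higher than DMSO and 0 lower, against 5.85 and 3.44 percent of all genes. All 3 are members described above, so edgeR called no other tested family gene. Of the same genes DESeq2 called 2 ligands and 4 receptors higher and 1 receptor lower, against 17.7 percent of all genes in either direction. The median log2 difference was 0.75 for these ligands and 0.20 for the receptors. The ligand count rose without either combination library and fell without either DMSO library. The receptor count rose without either combination library and fell without any other 1 library. So did the count over all genes.

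Several other family genes differed between the 2 combination libraries. CD70, the ligand of CD27, had 36.8 and 63.7 CPM in the combination, 24.5 and 28.2 CPM with VTP50469, 31.5 and 27.0 CPM with WM1119, and 29.4 and 29.3 CPM in DMSO (combination log2 0.77, SE 0.26, adjusted p = 0.109). LTB, lymphotoxin beta, had 4.83 and 13.9 CPM in the combination, 7.70 and 9.09 CPM with VTP50469, 7.71 and 5.67 CPM with WM1119, and 5.74 and 5.26 CPM in DMSO. TNFSF14, which encodes LIGHT, went the other way within the combination, with 11.7 and 3.59 CPM, against 7.06 and 7.47 CPM with VTP50469, 7.28 and 8.82 CPM with WM1119, and 4.87 and 5.22 CPM in DMSO. For LTB and TNFSF14 the 2 combination libraries fell on opposite sides of DMSO, and neither passed the test (adjusted p = 0.29 and 0.393).

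The receptor of TWEAK and the death receptors of TRAIL gave values below DMSO in the combination that did not pass by edgeR. TNFRSF12A, the TWEAK receptor, had 6.57 and 7.25 CPM in the combination, 6.18 and 6.24 CPM with VTP50469, 10.2 and 7.74 CPM with WM1119, and 12.6 and 10.4 CPM in DMSO (combination log2 -0.73, SE 0.21, edgeR adjusted p = 0.0738, DESeq2 0.0432). All 6 treated libraries were below both DMSO libraries. For the death receptors of TRAIL the log2 value in the combination was -0.54 for TNFRSF10A (adjusted p = 0.241) and -0.38 for TNFRSF10B (0.133). TNFRSF10A had 22.6 and 11.6 CPM in the combination and 25.7 and 24.3 CPM in DMSO. Its value thus rests mostly on combination replicate 2. For the decoy TNFRSF10D the log2 value was 0.16. FAS, the death receptor of FAS ligand, stood at 0.88 (SE 0.27, edgeR adjusted p = 0.0875, DESeq2 0.0498), and RELT at 0.37 (adjusted p = 0.117). TNFRSF6B, a soluble decoy of FAS ligand that overlaps a readthrough of RTEL1 and is uncertain, stood at 1.67 (SE 0.50, edgeR adjusted p = 0.0855, DESeq2 0.0275). TNFSF9, TNFRSF8, TNFRSF14 and TNFRSF21 had values of 0.20, -0.20, 0.39 and 0.18.

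**Figure D4:**
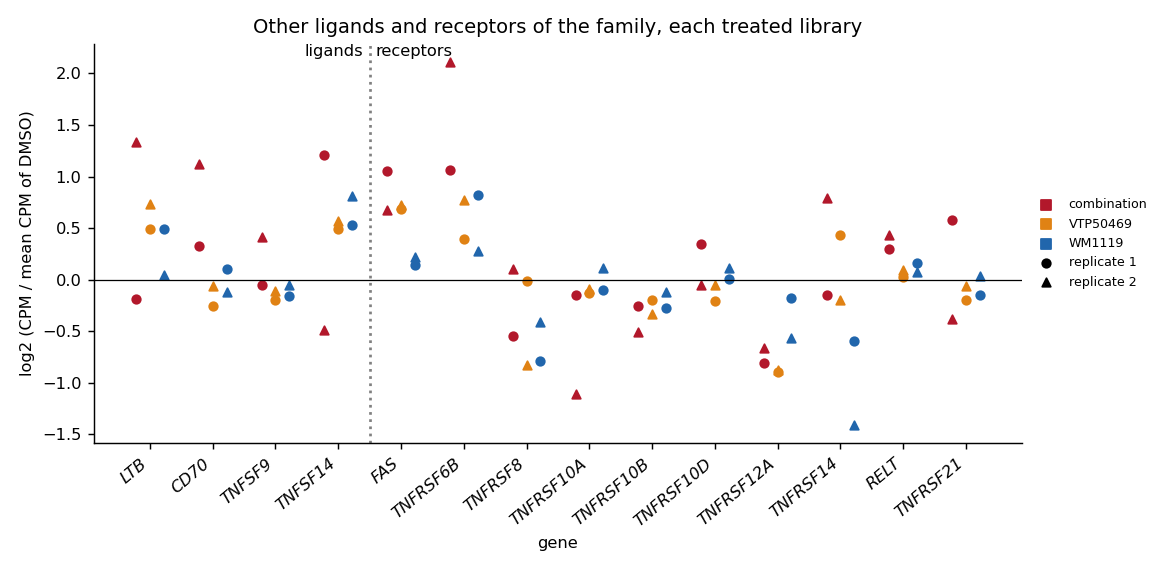
Log2 ratio of CPM to the DMSO mean in each treated library for the other tested family genes that averaged 1 CPM or more in some group. The 2 combination libraries lie far apart for LTB (-0.19 and 1.34), TNFSF14 (1.21 and -0.49) and TNFRSF21 (0.58 and -0.38), and all 6 treated libraries are below 0 for TNFRSF12A.

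Downstream of the receptors, the adaptors and kinases were called in the combination at a share near that of all genes. Of 31 listed, 29 were tested, and 2 were called higher and 1 lower than DMSO, against 5.85 and 3.44 percent of all genes, with a median log2 difference of 0.06. TRAF3, the inhibitor of non-canonical NF-kB signaling that receptors of BAFF and lymphotoxin degrade, had 22.7 and 16.9 CPM in the combination, 38.2 and 35.8 CPM with VTP50469, 31.1 and 33.6 CPM with WM1119, and 42.7 and 44.2 CPM in DMSO. All treated libraries were below DMSO, and in the combination the log2 difference was -1.13 (SE 0.17, adjusted p = 0.0131). MLKL, the effector of necroptosis, had 31.8 and 31.9 CPM in the combination, 23.9 and 22.2 CPM with VTP50469, 18.4 and 19.7 CPM with WM1119, and 18.7 and 21.4 CPM in DMSO (0.66, SE 0.14, adjusted p = 0.0354). CFLAR, which encodes the caspase-8 inhibitor c-FLIP, had 78.5 and 80.4 CPM in the combination, 73.8 and 74.1 CPM with VTP50469, 54.3 and 55.2 CPM with WM1119, and 55.4 and 54.7 CPM in DMSO (0.53, SE 0.12, adjusted p = 0.0389). For CFLAR the combination and VTP50469 libraries stood together above the other 4 libraries. The call of TRAF3 was lost without DMSO replicate 1 or 2 (adjusted p up to 0.126), and those of MLKL and CFLAR without any 1 library of VTP50469, WM1119 or DMSO (up to 0.297 and 0.293). The count of the list rose without either combination library and fell without any 1 library of the other groups. So did the count over all genes.

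Of 8 NF-kB subunits and inhibitors, all tested, 2 were called higher in the combination and 0 lower, against 5.85 and 3.44 percent of all genes, with a median of 0.01. NFKB2, whose product p100 is processed in the non-canonical pathway, had 7.63 and 13.2 CPM in the combination, 6.13 and 5.45 CPM with VTP50469, 6.73 and 6.10 CPM with WM1119, and 4.6 and 4.27 CPM in DMSO (log2 1.23, SE 0.29, adjusted p = 0.0461). NFKBIA, the inhibitor and a target gene of NF-kB, had 26.1 and 37.4 CPM in the combination, 19.9 and 19.0 CPM with VTP50469, 21.6 and 23.4 CPM with WM1119, and 19.1 and 15.9 CPM in DMSO (0.86, SE 0.21, adjusted p = 0.0486). Combination replicate 2 was the higher library for both. Both calls were lost without any 1 library of VTP50469, WM1119 or DMSO, and the count of the list rose without either combination library. The count over all genes also fell in the former fits and rose in the latter.

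Of 27 NF-kB target genes of the TNF response, 18 were tested, and 7 were called higher in the combination and 0 lower, against 5.85 and 3.44 percent of all genes, with a median of 0.61. NFKB2 and NFKBIA are in this list too and are 2 of the 7. CXCL8, the neutrophil chemokine IL-8, had 27.4 and 44.2 CPM in the combination, 7.06 and 12.7 CPM with VTP50469, 1.41 and 1.5 CPM with WM1119, and 0.703 and 1.66 CPM in DMSO. It rose by a log2 difference of 4.89 in the combination (SE 0.50, adjusted p = 0.00363). That call was held without each library in turn, with log2 differences between 4.41 and 5.65. With VTP50469 the value was 3.04 (SE 0.48), which edgeR did not call (adjusted p = 0.0953) and DESeq2 did (adjusted p = 1.95e-07). TNFAIP2, a gene first found as induced by TNF, had 54.1 and 44.7 CPM in the combination, 24 and 25.9 CPM with VTP50469, 30.1 and 36.1 CPM with WM1119, and 20.6 and 19.7 CPM in DMSO (1.30, SE 0.17, adjusted p = 0.00732). IER3, an immediate early gene, had 9.12 and 13.8 CPM in the combination, 2.45 and 3.07 CPM with VTP50469, 5.02 and 3.19 CPM with WM1119, and 2.44 and 2.89 CPM in DMSO (2.10, SE 0.33, adjusted p = 0.0147). In IER3 the combination stood well above the other 3 groups. In TNFAIP2 it was also above them, with WM1119 nearest (44.7 against 36.1 CPM in the nearest libraries). TNFAIP8 had 116.6 and 134.3 CPM in the combination, 85.2 and 96.9 CPM with VTP50469, 111.1 and 97.6 CPM with WM1119, and 64.7 and 73.8 CPM in DMSO (0.86, SE 0.15, adjusted p = 0.0216). The calls of TNFAIP2 and IER3 were lost without DMSO replicate 1 or 2 (adjusted p up to 0.111 and 0.159), and that of TNFAIP8 without any 1 library of VTP50469, WM1119 or DMSO (up to 0.222). The count of the list fell without any 1 library of VTP50469, WM1119 or DMSO and rose without combination replicate 1. So did the count over all genes. Many of these genes are also expressed in monocytes and neutrophils, whose summed markers were higher in the same libraries as given above, and the part of that in the list was not tested.

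Of 11 genes for processing of ligands and receptors and for control of TNF mRNA, all tested, 1 was called higher and 0 lower, against 5.85 and 3.44 percent of all genes, with a median of -0.04. This was LITAF, a gene named for lipopolysaccharide-induced TNF expression, with 105.1 and 130.7 CPM in the combination, 70.1 and 80.6 CPM with VTP50469, 57.7 and 59.7 CPM with WM1119, and 49.4 and 48.4 CPM in DMSO. The log2 difference in the combination was 1.27 (SE 0.16, adjusted p = 0.00662), and the combination was also above WM1119 (1.01, adjusted p = 0.0351). TNF itself lay between 39.7 and 46.2 CPM in all libraries. The call against DMSO was lost without DMSO replicate 1 or 2. The count of the list rose without either combination library, as did the count over all genes.

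Type I interferon response genes were set beside the ligands because TNFSF13B and TNFSF10 are known interferon-induced genes in myeloid cells. Of 16 listed, 11 were tested, 3 were called higher in the combination and 0 lower, against 5.85 and 3.44 percent of all genes, and the median was 1.09. IFI6 had 9.41 and 18.6 CPM in the combination, 0.834 and 2.77 CPM with VTP50469, 1.36 and 0.750 CPM with WM1119, and 0.541 and 0.569 CPM in DMSO (4.64, SE 0.69, adjusted p = 0.0122). OAS1, an enzyme of the antiviral response to double-stranded RNA, had 1.74 and 2.79 CPM in the combination, 0.638 and 0.659 CPM with VTP50469, 0.639 and 0.891 CPM with WM1119, and 0.325 and 0.379 CPM in DMSO (2.65, SE 0.48, adjusted p = 0.0216). Both were below 1 CPM in DMSO. MX2, an antiviral GTPase, had 11.2 CPM in both combination libraries, 6.92 and 7.51 CPM with VTP50469, 8.56 and 6.66 CPM with WM1119, and 5.36 and 4.70 CPM in DMSO (1.15, SE 0.20, adjusted p = 0.0198). The calls were lost without DMSO replicate 1 or 2 for IFI6 (adjusted p up to 0.137), without either library of VTP50469 or DMSO for MX2 (up to 0.193), and without any 1 library of VTP50469, WM1119 or DMSO for OAS1 (up to 0.209). The count of the list rose without either combination library and fell without any 1 library of VTP50469, WM1119 or DMSO. So did the count over all genes. With VTP50469 or with WM1119 alone, edgeR called 0 of the 93 tested genes of these 7 lists against DMSO. At an unadjusted p under 0.05 there were 15 with VTP50469 and 11 with WM1119, against 6.75 and 4.94 percent of all genes. DESeq2 called 1 in each, CXCL8 with VTP50469 and TNFSF10 with WM1119, against 1.54 and 0.62 percent. Medians over the lists ran between -0.08 and 0.53 with VTP50469 and between -0.01 and 0.44 with WM1119.

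**Figure D5:**
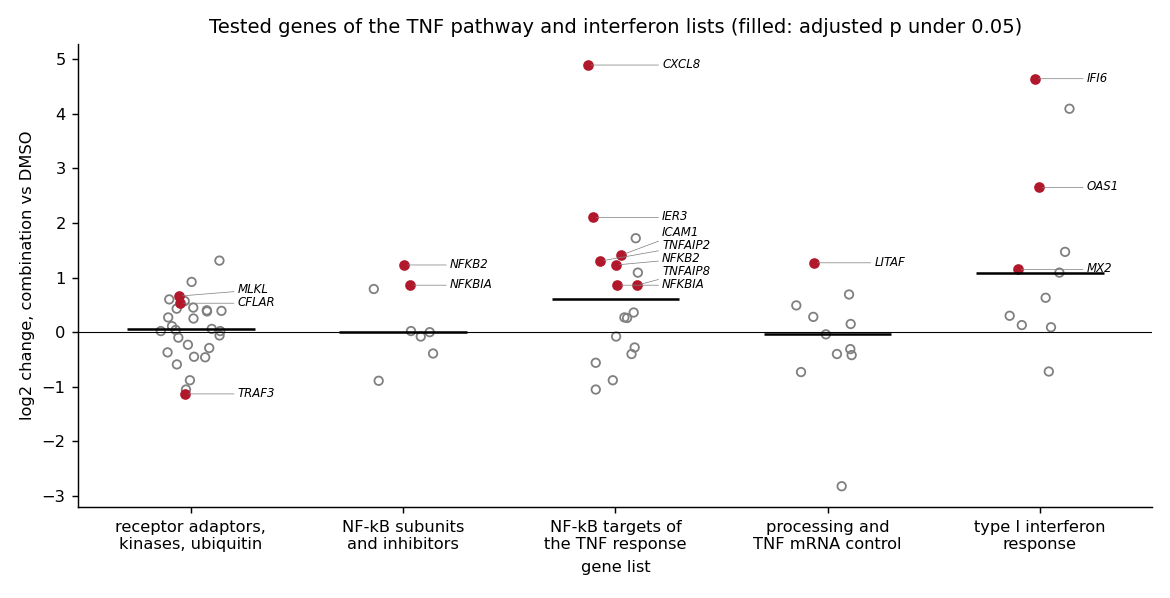
Log2 change between the combination and DMSO for each tested gene of the 5 signaling, target and interferon lists. Points are genes, filled where the adjusted p is under 0.05, and horizontal bars are list medians. CXCL8 (4.89) and IFI6 (4.64) are farthest above 0, and TRAF3 (-1.13) is the single called gene below 0.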

How the data were processed

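The authors sequenced bulk RNA of MOLM-13, mapped reads to hg38 with STAR 2.5.1b and deposited expected counts per gene symbol, not normalized, of which 11.4 to 16.6 percent were not whole numbers. The sources used here name no counting tool, strand setting or annotation, and the study compared groups with DESeq2. Expected counts were rounded and tested with edgeR 4.0.16 in R 4.3.3 (quasi-likelihood F test after TMM scaling and filterByExpr, all 4 groups in 1 fit, Benjamini-Hochberg adjustment over all 12401 genes tested of 26475). A gene was called at an adjusted p under 0.05. CPM use TMM library sizes, and SE is the log2 change over the square root of F. Depth was 18092906 to 23634468 counts per library. The steps were tested on simulated data with the same spread in every group, which leaves out the wider spread between the combination libraries. Alternatives were DESeq2 1.42.0, RLE factors, no count filter, a replicate block, a fit of only the groups compared, and leaving out each library. Members, gene lists and tests were chosen with earlier results of these data known. Named genes were the members, called list genes (at most 4 per list by lowest p), other family genes of at least 1 CPM, BAFF and APRIL receptors, and the 5 genes most like TNFSF13B, of which 1 is not reported here. Positions and lengths are from GENCODE 44 and upstream sequences from RefSeq, of which 2 are printed.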

Additional observations from a re-analysis of the deposited data

Results flagged for a closer look

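CD70 drew attention because its libraries with VTP50469 lay on opposite sides of those without it, depending on WM1119. Both VTP50469 libraries (24.5 and 28.2 CPM) were below both DMSO libraries (29.4 and 29.3 CPM), and both combination libraries (36.8 and 63.7 CPM) were above both WM1119 libraries (31.5 and 27.0 CPM). The log2 interaction was 0.93 (SE 0.37, unadjusted p = 0.0384) and did not pass the adjustment (edgeR adjusted p = 0.938). The nearest libraries of VTP50469 and DMSO were close (28.2 against 29.3 CPM), with a log2 difference of -0.15 between these groups (SE 0.26). The 2 combination libraries lay far apart, and the share of all genes with this CD70 pattern was not counted.

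TNFRSF12A drew attention in the same way for WM1119 without and with VTP50469. Both WM1119 libraries (10.2 and 7.74 CPM) were below both DMSO libraries (12.6 and 10.4 CPM), and both combination libraries (6.57 and 7.25 CPM) were above both VTP50469 libraries (6.18 and 6.24 CPM). The log2 interaction was 0.51 (SE 0.29, edgeR adjusted p = 0.938) and did not pass. Nearest libraries were close (10.2 against 10.4 CPM, and 6.57 against 6.24 CPM), and the share of all genes with this pattern was not counted.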

How the results depend on the processing

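TNFSF13B kept the direction of its differences in every alternative run, and its 1 tested contrast, WM1119 with DMSO, changed sides of the threshold, without combination replicate 1 or 2 as given above. The counts of calls moved more. Against DMSO, VTP50469 had 21 genes called, and 204 by DESeq2, 50 with no count filter and 1332 in a fit of only the groups compared, where 3 of the 6 tested members were called instead of 0. WM1119 had 0 genes called, and 82 by DESeq2 (1 member) and 46 in a fit of only its groups. The combination had 1152 genes and 3 members called against DMSO, with 2288 genes by DESeq2 and 0 genes and 0 members in a fit of only its groups. The combination against VTP50469 had 49 genes and 0 members called, with 684 genes and 2 members by DESeq2, 148 genes and 1 member with no count filter, 1 member with RLE factors, and 0 genes in a fit of only its groups. The combination against WM1119 had 177 genes and 0 members called, with 714 genes and 2 members by DESeq2 and 0 genes in a fit of only its groups. For the interaction edgeR called 0 genes and DESeq2 5.

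No pairing was established between groups, since deviations of same-numbered libraries correlated between -0.443 and 0.173. With the number as a block the combination had 528 genes called against DMSO, 2 against VTP50469 and 65 against WM1119. Leaving out each library gave 0 to 419 genes and 0 to 1 members for VTP50469 against DMSO, 0 to 176 and 0 to 2 for WM1119 against DMSO, 69 to 7756 and 0 to 5 for the combination against DMSO, 0 to 7222 and 0 to 4 against VTP50469, 1 to 6915 and 0 to 5 against WM1119, and 0 to 3938 and 0 to 1 for the interaction. The highest counts came without a combination library. The direction of TNFSF14 between the combination and VTP50469 depended on the library left out. Its log2 difference was 0.09, 0.69 without combination replicate 2, and -1.03 without combination replicate 1. The cause of these shifts was not tested. With 2 libraries per group, small differences could not be detected.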
